A study of Homo sapiens with 6 samples.

Results

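The genes described here are 50 listed genes of the NRF2 pathway, of glutathione and thioredoxin metabolism and of the aldo-keto reductase family, out of 40488 genes in the deposited table. They were chosen by symbol from the table's Ensembl gene identifiers. Of the 50, 49 had a row in the table, all 49 passed the filter on low counts, and 1, SOD2, was not analysed here. RNA was sequenced from SCC90, an established HPV-positive oropharyngeal squamous cell carcinoma line, in 3 libraries of cells transfected with a scrambled siRNA (siCtrl) and 3 libraries of cells transfected with a ΔNp63 siRNA (siDNp63). RNA was harvested 72 h after transfection, and the labels give the siRNA at 10 nM, while the study's methods give a higher concentration. All libraries come from the same line, and a single ΔNp63 siRNA and a single control siRNA were used. Nothing in the labels ties the replicates to different cultures, and every p-value rests on the spread among 3 libraries per group, which may be technical.

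ΔNp63 is the isoform of the transcription factor p63 that lacks the N-terminal transactivation domain, and it is abundant in basal squamous epithelium. NRF2, encoded by NFE2L2, is the transcription factor that drives the cellular answer to oxidants and electrophiles. Its adaptor KEAP1 sends it for degradation in unstressed cells, and electrophiles that modify KEAP1 let it accumulate. With small MAF proteins NRF2 then binds antioxidant response elements in the promoters and enhancers of genes for glutathione synthesis, NADPH supply, thioredoxin and quinone reduction. Squamous carcinomas often carry an active NRF2 programme, and the aldo-keto reductases AKR1C1 to AKR1C3 and AKR1B10 are among its most used transcript readouts.

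TP63, the targeted gene, had normalized counts of 42300, 44183 and 43680 in siCtrl replicates 1, 2 and 3 and of 15513, 14467 and 15407 in siDNp63 replicates 1, 2 and 3. A normalized count is an expected count scaled by TMM to the mean library size. TP63 fell by 1.52 on the log2 scale (standard error, SE, 0.04, edgeR adjusted p = 7.59e-07), a gene-level value that does not separate its isoforms. The library totals lay between 35716277 and 52598831 expected counts, which limits precision mainly for genes with few counts. In a principal component analysis siDNp63 replicate 1 stood apart from the other siDNp63 libraries on the second component (-39.1 against 25.6 and 24.8), so values without it are given where they change a call. The epithelial markers were present in all libraries, with summed levels of 2077 to 2152 TPM (an abundance per transcript length) in siCtrl and 2742 to 2811 in siDNp63. Of these 8 markers 6 rose and 1, TP63, fell. Leukocyte markers summed to 19.0 to 20.6 TPM in siCtrl and 16.6 to 17.5 in siDNp63, with 1 of 6 tested called, lower, and with MS4A1 and AIF1 at 0. Fibroblast markers summed to 8.72 to 10.8 TPM and 5.83 to 9.11 TPM, with 1 of 3 tested called, lower, and PDGFRB at 0. Endothelial markers summed to 2.56 to 3.03 TPM in siCtrl and 11.1 to 13.6 TPM in siDNp63. Of the 5 listed, the 3 tested, PECAM1, VWF and KDR, were all higher. CDH5 and CLDN5 had too few counts to be tested, with means of 3.61 and 2.31 normalized counts in siCtrl and 1.21 and 1.60 in siDNp63. The part of these markers in the results on redox genes was not tested.

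The comparison of siDNp63 with siCtrl asks which of these redox genes change when ΔNp63 is silenced. AKR1C1, AKR1C2 and AKR1C3 rose to 2.58, 2.74 and 2.90 times their siCtrl counts and were the members past a log2 fold change of 1. The other called members had log2 fold changes between -0.86 and 0.78, in both directions. NFE2L2 and KEAP1 themselves did not pass the test. At an adjusted p under 0.05 by edgeR's quasi-likelihood test, 16 of 49 members were higher (32.7%) and 10 were lower (20.4%), against 18.4% higher and 15.2% lower among all 17257 genes tested. Together 26 of 49 members were called (53.1%) against 33.6% of all genes tested. The members were chosen with earlier results of these data known, so these shares are a description and not a test of the list. The siCtrl and siDNp63 libraries did not overlap for 31 members, against 49.4% of all genes. Past a log2 fold change of 1 there were 3 higher and 0 lower members, against 2.35% and 1.71% of all genes. The count past that size was 3 higher and 0 lower in every alternative run on the list, DESeq2 and limma-voom included. The median log2 fold change was -0.005 over the members and -0.023 over all genes. The members were measured at high counts, with a median normalized count of 2739 against 698.5 for all genes tested. In bulk RNA, fewer cells of a kind and less RNA per cell cannot be told apart, which holds for every value below. With library size as the only scaling, 13 members were higher and 14 lower, and the median of all genes moved to -0.11. With 1 library left out, 12 to 18 members were higher and 5 to 10 lower, the lower count falling to 5 without siCtrl replicate 3 and to 6 without siDNp63 replicate 3. No called member changed direction under any alternative. A p that misses the threshold does not show that the levels were equal.

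**Figure D1:**
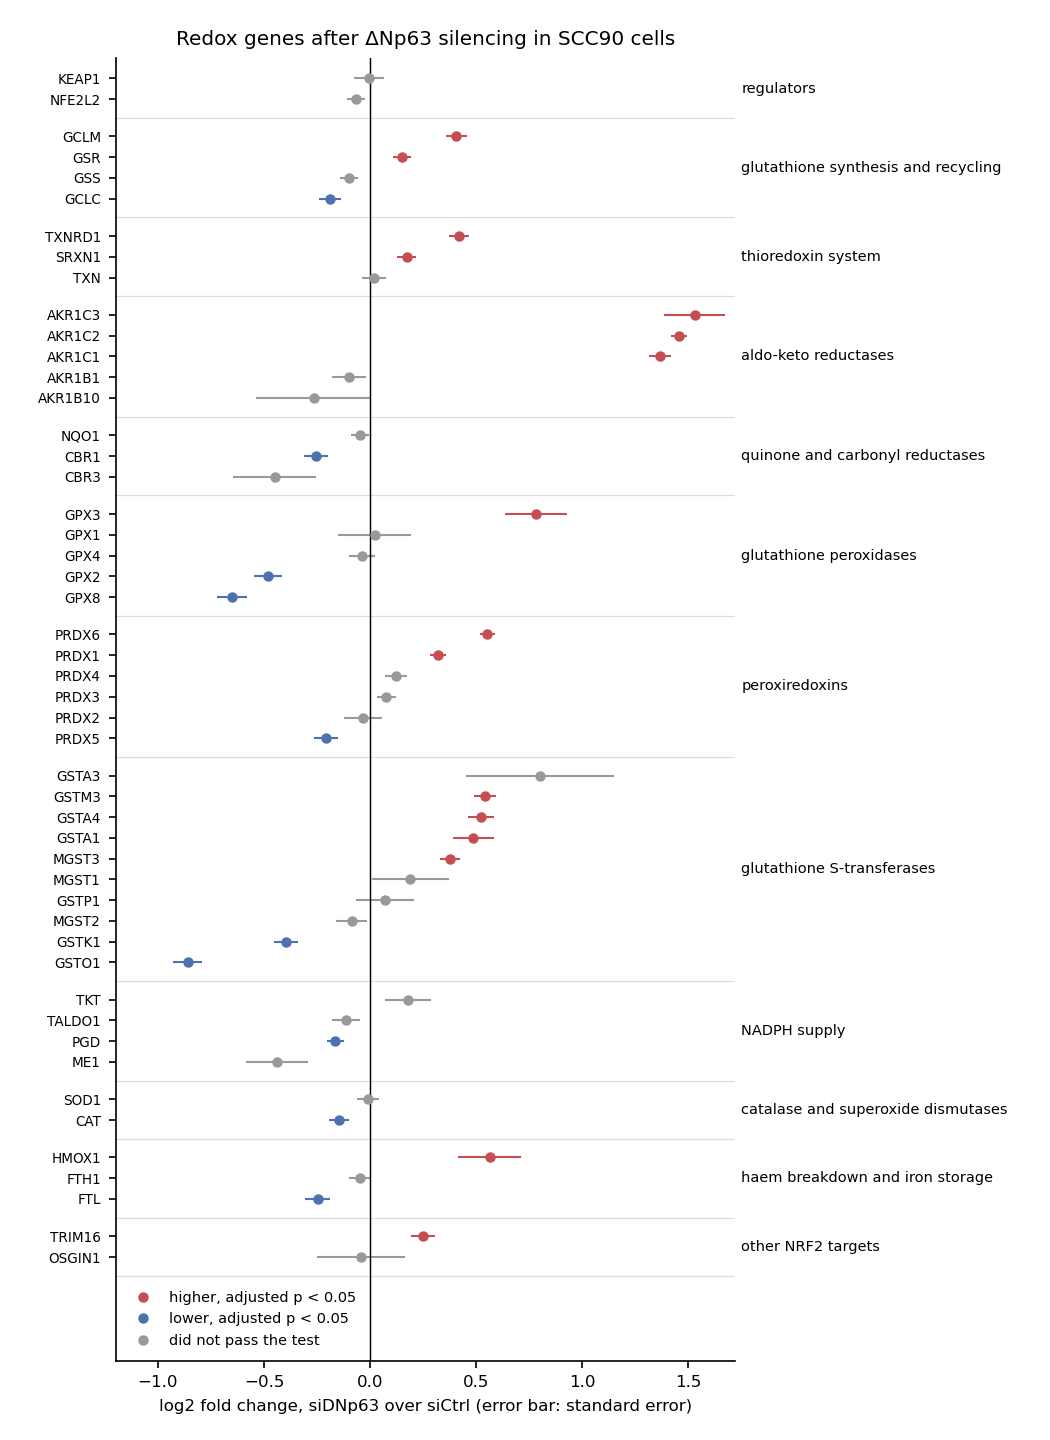
Log2 fold change of siDNp63 over siCtrl (x axis) for the 49 measured genes, grouped by role, with bars for the standard error and colour for the call by edgeR at an adjusted p of 0.05. AKR1C1, AKR1C2 and AKR1C3 lie between 1.37 and 1.53, and the other called genes lie between -0.86 and 0.78.

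The regulators NFE2L2 and KEAP1 gave normalized counts that overlapped between the groups. NFE2L2 stood at 7802 ± 306 (SD, n = 3) in siCtrl and 7456 ± 198 in siDNp63, a log2 fold change of -0.07 (SE 0.043, edgeR adjusted p = 0.287). It passed only with library size as the scaling (-0.15, adjusted p = 0.0153). KEAP1 stood at 5156 ± 114 and 5134 ± 529, a log2 fold change of -0.01 (SE 0.072, edgeR adjusted p = 0.964). Transcript levels do not report the NRF2 protein, which is controlled mainly by degradation. Among 15 further regulators of the pathway 6 rose and 2 fell (53.3% called, against 33.6% of all genes tested). MAFF, a small MAF partner of NRF2, rose from 113 ± 15.2 to 230.1 ± 28.6 normalized counts (by a log2 fold change of 1.03, SE 0.148, edgeR adjusted p = 0.00131). NFE2L3, a relative of NRF2, had a log2 fold change of 0.67 and BACH2, a repressor that competes for the same elements, one of 0.50. BACH2 did not pass with limma on log2(TPM + 0.5) (0.27, adjusted p = 0.234) or with transcript length offsets (0.43, adjusted p = 0.100).

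The aldo-keto reductases reduce aldehydes and ketones with NADPH. AKR1C1, AKR1C2 and AKR1C3 also reduce steroid hormones and lie next to each other on chromosome 10 of GRCh38 (4963253 to 4983283, 4987775 to 5018031 and 5035354 to 5107686). AKR1C1 had normalized counts of 4015, 4347 and 4451 in siCtrl replicates 1, 2 and 3 and of 10647, 11404 and 10979 in siDNp63 replicates 1, 2 and 3. AKR1C2, which favours the inactivation of dihydrotestosterone, had 12086, 12052 and 12816 in siCtrl and 33826, 34371 and 33135 in siDNp63. AKR1C3, which makes active androgens and prostaglandins, had 281.8, 185.0 and 230.8 in siCtrl and 692.1, 645.1 and 684.4 in siDNp63. In all 3 genes every siDNp63 library was far above every siCtrl library, with no overlap. AKR1C2 had a log2 fold change of 1.46 (SE 0.039, edgeR adjusted p = 7.59e-07). AKR1C1 followed at 1.37 (SE 0.051, edgeR adjusted p = 2.36e-06). AKR1C3 reached 1.53 (SE 0.144, edgeR adjusted p = 1.49e-04), and its larger SE goes with its lower counts. All 3 calls held in every alternative, with log2 fold changes of 1.28 to 1.44 for AKR1C1, 1.37 to 1.48 for AKR1C2 and 1.36 to 1.69 for AKR1C3.

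Per length, AKR1C1, AKR1C2 and AKR1C3 together reached 655 ± 18.8 TPM in siCtrl and 1729 ± 16.2 TPM in siDNp63, a ratio of 2.64. Their order did not change. AKR1C2 gave 68.5 to 71.8% of that sum in the siCtrl libraries and 69.3 to 72.1% in the siDNp63 libraries. AKR1C1 gave 26.3 to 30.2% and 26.5 to 29.1%, and AKR1C3 1.25 to 1.86% and 1.43 to 1.58%. The shares overlapped between the groups for each of the 3 genes. Among the 49 members ranked by TPM, AKR1C2 moved from rank 8 to rank 2 and AKR1C1 from rank 14 to rank 7. How reads are divided between the copies is uncertain, because 45.6% of the 31-base words in AKR1C2 transcripts of the GENCODE annotation also occur in other genes, and 44.6% of all its words occur in AKR1C1. For AKR1C1 the share found in other genes was 31.8% and for AKR1C3 8.29%. AKR1C1 to AKR1C4, summed before the fit, had a log2 fold change of 1.43 (SE 0.039, edgeR adjusted p = 1.31e-06). Division of reads among these summed genes cannot alter that value, but other copies of the family were not in the sum. AKR1C4, a liver enzyme, had a mean of 4.88 normalized counts in siCtrl and 8.61 in siDNp63 and was not tested.

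The 250 bases before the RefSeq start of AKR1C1 and AKR1C2 are shown because their windows are near copies. The windows of AKR1C3, which rose by a log2 fold change of 1.53, were not aligned with them. Any part of these sequences in the changes was not tested. In an alignment 245 of 246 paired bases were identical (99.6%), and capitals mark the bases of each window that had no identical partner in the other. Of these capitals, 4 in each window are end bases left unaligned because the windows are offset, not differing bases. The windows are given 5′ to 3′ on the strand of the gene, from RefSeq on GRCh38.p14.
AKR1C1, chr10:4963165-4963414, plus strand: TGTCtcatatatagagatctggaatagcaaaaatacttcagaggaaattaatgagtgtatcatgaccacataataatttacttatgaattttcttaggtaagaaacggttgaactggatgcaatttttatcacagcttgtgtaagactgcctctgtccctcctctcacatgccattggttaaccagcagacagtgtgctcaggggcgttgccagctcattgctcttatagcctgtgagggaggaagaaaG
AKR1C2, chr10:5003858-5004107, minus strand: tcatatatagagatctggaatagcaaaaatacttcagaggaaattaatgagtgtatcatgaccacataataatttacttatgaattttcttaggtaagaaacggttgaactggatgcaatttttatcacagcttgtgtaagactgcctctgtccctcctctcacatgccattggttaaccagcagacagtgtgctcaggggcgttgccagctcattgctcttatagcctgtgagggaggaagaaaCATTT
Neither window held the core of the antioxidant response element searched here, TGACNNNGC on either strand. This says only that the letters are not in these windows.

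AKR1B1 and AKR1B10, the other listed reductases of this kind, did not pass the test. AKR1B1, the polyol pathway aldose reductase, had 2836 ± 72.7 normalized counts in siCtrl and 2642 ± 307 in siDNp63 (log2 fold change -0.10, edgeR adjusted p = 0.380). AKR1B10, a retinal reductase, had 27.8, 40.5 and 33.8 in siCtrl and 33.3, 30.8 and 21.0 in siDNp63, with overlap. Its log2 fold change was -0.27 (SE 0.271, edgeR adjusted p = 0.498), and at such counts a change of that size was not detectable. Of 14 further aldo-keto and carbonyl reductases tested, 2 were higher and 7 lower (64.3% called, against 33.6% of all genes tested). DHRS9, a retinol dehydrogenase, and AKR1C8 rose, but from 4.39 and 3.03 normalized counts to 21.6 and 13.8 (log2 fold changes 2.28, SE 0.33, and 2.13, SE 0.425). DHRS2 fell by 0.72 on the log2 scale and DHRS3, a retinal reductase, by 0.56.

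**Figure D2:**
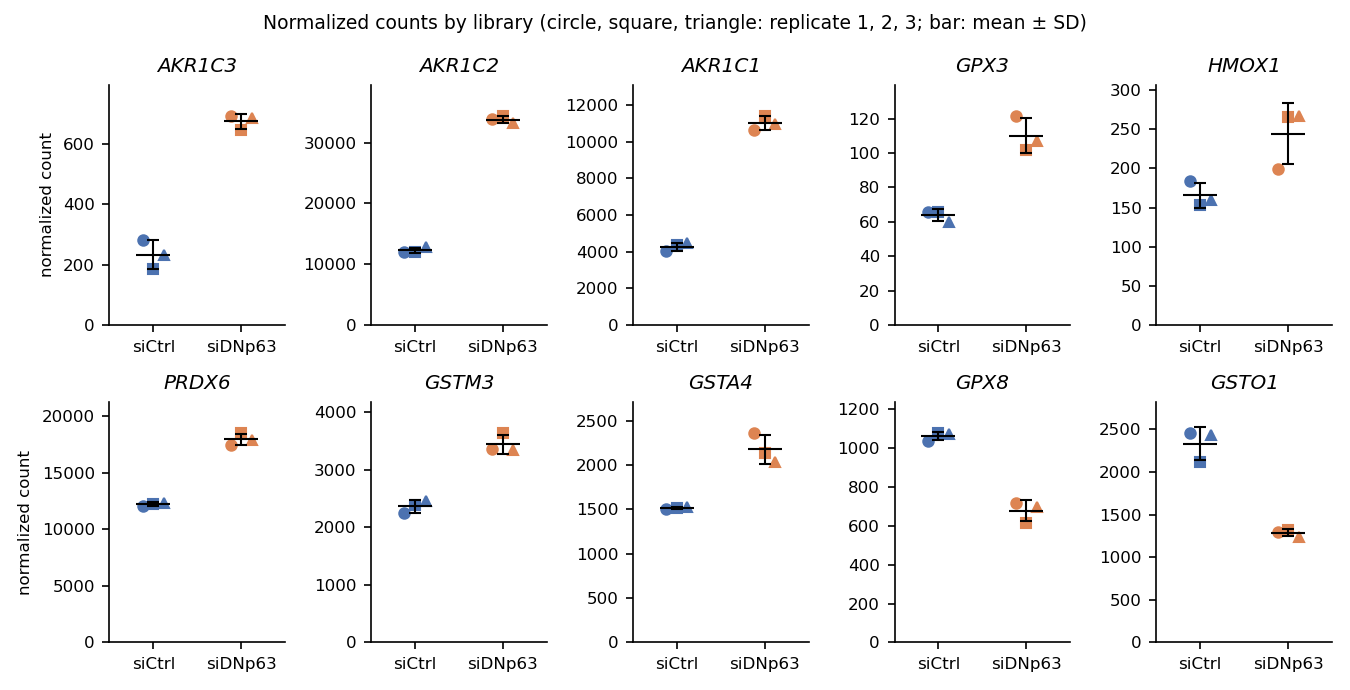
Normalized count (y axis, linear, from 0) in each library for the 10 members called with an absolute log2 fold change of at least 0.5, with the mean and SD of 3 libraries per group. Blue marks siCtrl and orange siDNp63. The groups do not overlap in any panel, and siDNp63 replicate 1 (circle) is the lowest siDNp63 library for AKR1C1, PRDX6 and HMOX1.

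Glutathione is made by glutamate-cysteine ligase, a pair of a catalytic subunit (GCLC) and a modifier subunit (GCLM), and then by glutathione synthetase (GSS). The subunits moved in opposite directions. GCLM had 3395, 3360 and 3437 normalized counts in siCtrl replicates 1, 2 and 3 and 4784, 4226 and 4501 in siDNp63. GCLC had 5667, 5436 and 5932 in siCtrl and 5268, 4810 and 4876 in siDNp63. Neither gene's groups overlapped, with every siDNp63 library above siCtrl for GCLM and below it for GCLC. GCLM rose by a log2 fold change of 0.41 (SE 0.05, edgeR adjusted p = 5.81e-04), a call that held in every alternative. GCLC fell by 0.19 on the log2 scale (SE 0.051, edgeR adjusted p = 0.0235), and it was not called without siCtrl replicate 3 (-0.16, adjusted p = 0.0593), siDNp63 replicate 2 (-0.16, adjusted p = 0.0676) or siDNp63 replicate 3 (-0.17, adjusted p = 0.0867). GSS had 3589 ± 131 and 3348 ± 118 (log2 fold change -0.10, edgeR adjusted p = 0.122), passing only with library size as the scaling (-0.19, adjusted p = 0.0164). GSR, the reductase that recycles oxidized glutathione, rose from 4308 ± 58.4 to 4788 ± 205 (log2 fold change 0.15, SE 0.042, edgeR adjusted p = 0.0254). The GSR call was lost with library size as the scaling (0.07, adjusted p = 0.214), on TPM (0.08, adjusted p = 0.351), with length offsets (0.15, adjusted p = 0.0756) and without siCtrl replicate 2 (0.14, adjusted p = 0.0715) or 3 (0.15, adjusted p = 0.0586).

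The GCLM window is shown because it holds the element core, in capitals, on the reverse strand 34 bases before the start.
GCLM, chr1:93909431-93909680, minus strand: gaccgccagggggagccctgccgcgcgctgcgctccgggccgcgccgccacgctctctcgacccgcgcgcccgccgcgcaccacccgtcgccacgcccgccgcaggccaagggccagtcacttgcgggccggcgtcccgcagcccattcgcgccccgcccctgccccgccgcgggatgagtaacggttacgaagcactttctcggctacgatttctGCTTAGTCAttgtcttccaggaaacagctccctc
RefSeq windows of 250 bases before to 50 after the start were given for 40 of the 50 members, SOD2 among them, and 11 of the 40 held TGACNNNGC in at least 1 window, against 16.1% of all 27305 genes with a window. By call, they were 3 of 12 higher members (GCLM, TXNRD1 and GSTA4), 4 of 10 lower members (CBR1, GPX2, GSTO1 and PGD) and 4 of 17 members that were not called (KEAP1, GSTP1, MGST1 and ME1). The AP-1 site TGANTCA, which can lie inside the element core as in TGACTCAGC of GSTP1 and ME1, was found in 3 members (GSTP1, ME1 and OSGIN1), against 9.37% of all genes. None of the 22 called members with a window held it. Elements outside these windows were not searched, and a match is a description of letters, not a bound site.

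Of 26 further glutathione genes tested, 3 rose and 6 fell (34.6% called, against 33.6% of all genes tested). LANCL1, a glutathione-binding protein, fell by 0.67 on the log2 scale (SE 0.049, edgeR adjusted p = 4.35e-05). GLRX, the cytosolic glutaredoxin that removes glutathione from proteins, fell by 0.61 (SE 0.145, edgeR adjusted p = 0.0137), and was not called without siDNp63 replicate 3 (-0.54, adjusted p = 0.0529). Among 21 further NRF2 target genes 4 rose and 6 fell (47.6% called, against 33.6% of all genes tested). SLC7A11, the cystine importer that supplies glutathione synthesis, rose from 1063 ± 47.2 to 3330 ± 393 normalized counts (by a log2 fold change of 1.65, SE 0.087, edgeR adjusted p = 9.70e-06). ALDH3A1, an aldehyde dehydrogenase, rose from 1968 ± 70.8 to 5899 ± 1368 (1.59, SE 0.157, edgeR adjusted p = 1.97e-04). IDH1, a cytosolic source of NADPH, had a log2 fold change of 0.69 and BLVRB, biliverdin reductase B, one of -0.57.

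In the thioredoxin system TXNRD1, the reductase of cytosolic thioredoxin, rose from 4930 ± 213 to 6594 ± 226 normalized counts (by a log2 fold change of 0.42, SE 0.046, edgeR adjusted p = 3.48e-04). Its 2 RefSeq windows, at separate starts, held the element core at 2 places and 1 place. TXN, thioredoxin itself, had 7871 ± 298 and 7977 ± 548 (log2 fold change 0.02, edgeR adjusted p = 0.820), with overlapping groups. SRXN1, which repairs overoxidized peroxiredoxins, rose from 2219 ± 95.0 to 2500 ± 63.1 (log2 fold change 0.17, SE 0.046, edgeR adjusted p = 0.0230). It was not called with library size as the scaling (0.09, adjusted p = 0.164), on TPM (0.10, adjusted p = 0.271), with length offsets (0.16, adjusted p = 0.0678), or without siCtrl replicate 1 (0.18, adjusted p = 0.0523), siCtrl replicate 2 (0.13, adjusted p = 0.0792) or siDNp63 replicate 3 (adjusted p = 0.0503). In the annotation 90.6% of its 31-base words also occur in a readthrough gene, which had 9.36 and 8.16 normalized counts. Of 12 further thioredoxin and methionine sulfoxide genes tested, 2 rose and 4 fell, and MSRB2, a mitochondrial methionine sulfoxide reductase, fell by 0.58 on the log2 scale (SE 0.121, edgeR adjusted p = 0.00757).

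NQO1, the quinone reductase that is the standard NRF2 readout, did not pass the test. Its normalized counts were 2081, 1964 and 2065 in siCtrl and 2011, 1942 and 1954 in siDNp63. The groups overlapped. The log2 fold change was -0.05 (SE 0.043, edgeR adjusted p = 0.426), and only library size as the scaling gave a call (-0.14, adjusted p = 0.0356). CBR1, a carbonyl reductase of prostaglandins and quinones, fell from 1823 ± 99.0 to 1527 ± 57.8 (by 0.26 on the log2 scale, SE 0.056, edgeR adjusted p = 0.00943). CBR3, its relative, had 102.7 ± 23.8 and 75.2 ± 4.46 (log2 fold change -0.45, SE 0.195, edgeR adjusted p = 0.117). CBR3 passed without siCtrl replicate 2 (-0.61, adjusted p = 0.0474). Of its 31-base words 67.6% are shared with the antisense gene CBR3-AS1, and the default options of kallisto, which the study used, do not take strand into account. No row named CBR3-AS1 was found in the deposited values, so whether the study quantified it is not known. If it did, reads that hold only shared words cannot be assigned to 1 gene of the pair.

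The glutathione peroxidases, which reduce peroxides with glutathione, split by gene. GPX3, the secreted form, had 65.9, 65.5 and 59.7 normalized counts in siCtrl and 121.5, 101.8 and 106.8 in siDNp63. GPX2, the epithelial form, had 4771, 5082 and 5111 in siCtrl and 3225, 3867 and 3617 in siDNp63. GPX8, a form of the endoplasmic reticulum, had 1040, 1078 and 1072 in siCtrl and 720.2, 616.1 and 697.8 in siDNp63. Every siDNp63 library was above siCtrl for GPX3 and below it for GPX2 and GPX8. GPX3 rose by a log2 fold change of 0.78 (SE 0.146, edgeR adjusted p = 0.00460). GPX8 fell by 0.65 (SE 0.072, edgeR adjusted p = 3.58e-04) and GPX2 fell by 0.48 (SE 0.067, edgeR adjusted p = 0.00110). These calls held in every alternative. GPX1, the common cytosolic form, had 1265, 1064 and 1070 in siCtrl and 820.0, 1315 and 1303 in siDNp63, where replicate 1 lay below and the other 2 above all siCtrl libraries (log2 fold change 0.02, SE 0.172, edgeR adjusted p = 0.940). GPX4, which reduces lipid peroxides and guards against ferroptosis, had 5163 ± 136 and 5026 ± 424 (-0.04, edgeR adjusted p = 0.676). Per length, GPX2 stood at 271 ± 15.1 TPM in siCtrl and 184 ± 21.2 TPM in siDNp63 and GPX3 at 2.97 ± 0.116 and 5.30 ± 0.936 TPM, and the 5 peroxidases together at 776 ± 14.4 and 651 ± 49.5 TPM.

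Of the 6 peroxiredoxins, thiol peroxidases fed by thioredoxin or glutathione, 2 rose and 1 fell. PRDX6, which uses glutathione, had 12073, 12281 and 12369 normalized counts in siCtrl and 17487, 18515 and 17866 in siDNp63, without overlap. It rose by a log2 fold change of 0.55 (SE 0.036, edgeR adjusted p = 2.48e-05). PRDX1, a cytosolic form, rose from 13797 ± 246 to 17229 ± 599 (0.32, SE 0.039, edgeR adjusted p = 5.57e-04). PRDX5 fell from 2381 ± 62.8 to 2060 ± 147 (by 0.21 on the log2 scale, SE 0.058, edgeR adjusted p = 0.0272). The PRDX5 call was lost with length offsets (-0.18, adjusted p = 0.141) and without siCtrl replicate 1 (-0.23, adjusted p = 0.0833), 2 (-0.22, adjusted p = 0.0925) or 3 (-0.19, adjusted p = 0.130) or siDNp63 replicate 3 (-0.23, adjusted p = 0.0542). PRDX2, PRDX3 and PRDX4, the cytosolic, mitochondrial and endoplasmic reticulum forms, had log2 fold changes of -0.03, 0.08 and 0.12 and did not pass. The 6 genes summed to 1767 ± 41.4 TPM in siCtrl and 2011 ± 70.5 TPM in siDNp63.

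The glutathione S-transferases couple glutathione to electrophiles, and 4 of 10 rose and 2 fell (60.0% called, against 33.6% of all genes tested). GSTM3 had 2246, 2386 and 2463 normalized counts in siCtrl and 3354, 3633 and 3343 in siDNp63. GSTA4, which clears the lipid peroxidation product hydroxynonenal, had 1503, 1514 and 1525 in siCtrl and 2360, 2140 and 2031 in siDNp63. GSTO1, an omega-class thioltransferase, had 2456, 2112 and 2431 in siCtrl and 1297, 1320 and 1239 in siDNp63. None of these groups overlapped, and GSTO1 was the member that fell most. GSTM3 rose by a log2 fold change of 0.54 (SE 0.052, edgeR adjusted p = 1.68e-04) and GSTA4 by 0.52 (SE 0.06, edgeR adjusted p = 4.16e-04). GSTO1 fell by 0.86 (SE 0.067, edgeR adjusted p = 5.83e-05), from 135 ± 11.3 to 70.5 ± 0.402 TPM. The calls of these 3 genes held in every alternative.

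The GSTO1 window is shown because it holds the element core at 2 places, in capitals, in the member that fell most.
GSTO1, chr10:104254642-104254891, plus strand: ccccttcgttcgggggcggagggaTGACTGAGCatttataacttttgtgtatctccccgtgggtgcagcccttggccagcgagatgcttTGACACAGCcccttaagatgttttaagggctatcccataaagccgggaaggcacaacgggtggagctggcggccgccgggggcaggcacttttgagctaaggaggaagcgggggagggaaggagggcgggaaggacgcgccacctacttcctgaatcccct
The 2 matches lie 226 and 161 bases before the start. GSTA4 held 1 match, 9 bases before its start, and GPX2, which fell, held 1 match on the reverse strand 122 bases before its start.

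GSTA1, an alpha-class transferase, rose from 402 ± 40.3 to 564 ± 30.9 normalized counts (by a log2 fold change of 0.49, SE 0.095, edgeR adjusted p = 0.00567), and GSTA3, a steroid isomerase of the same class, had 12.3 ± 5.03 and 21.9 ± 2.06 (0.80, SE 0.348, edgeR adjusted p = 0.117). Of the 31-base words of GSTA1, 41.0% are shared with other genes, 31.8% with GSTA2, which had 5.23 and 8.41 normalized counts. GSTA1, GSTA2, GSTA3 and GSTA5 summed before the fit gave a log2 fold change of 0.50 (edgeR adjusted p = 0.00487). MGST3, a microsomal form, rose from 1700 ± 14.6 to 2206 ± 109 (0.38, edgeR adjusted p = 7.19e-04), and GSTK1, a mitochondrial and peroxisomal form, fell from 1426 ± 31.6 to 1082 ± 63.2 (by 0.40, edgeR adjusted p = 0.00132). The microsomal forms MGST1 and MGST2 had log2 fold changes of 0.19 and -0.09 and did not pass. GSTP1, the abundant pi-class form of squamous cells, had 6793, 7317 and 7113 in siCtrl and 5650, 8441 and 8180 in siDNp63. Replicate 1 of siDNp63 was the lowest of the 6 libraries and the other siDNp63 libraries were the highest. The log2 fold change was 0.07 (SE 0.136, edgeR adjusted p = 0.726) with all libraries and 0.23 (adjusted p = 0.00364) without siDNp63 replicate 1. The 10 genes summed to 991 ± 5.27 TPM in siCtrl and 1037 ± 62.0 TPM in siDNp63.

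**Figure D3:**
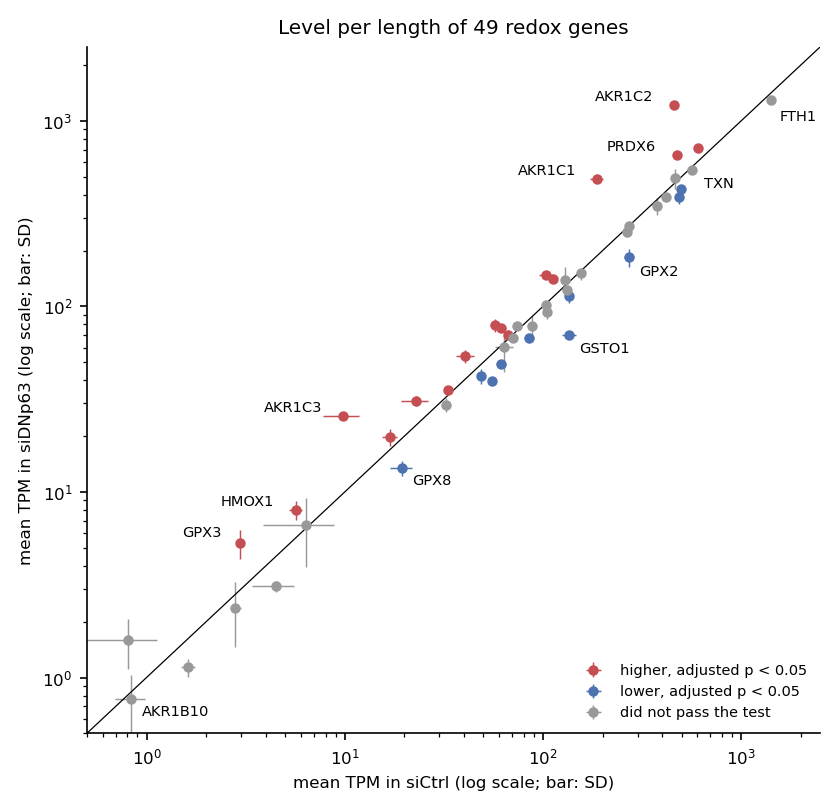
Mean TPM of each of the 49 members in siCtrl (x axis) and siDNp63 (y axis), both on log scales, with bars for the SD of 3 libraries, the line of equal level, and colour for the call. AKR1C2 lies farthest above the line among the abundant genes (458 and 1218 TPM), and GSTO1 lies below it (135 and 70.5 TPM).

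Of 4 genes of NADPH supply 1 fell and 0 rose by edgeR with all libraries. PGD, of the oxidative branch of the pentose phosphate pathway, fell from 14168 ± 107 to 12644 ± 523 normalized counts (by 0.16 on the log2 scale, SE 0.04, edgeR adjusted p = 0.0156). PGD was not called with length offsets (-0.14, adjusted p = 0.0518) or without siCtrl replicate 1 (-0.17, adjusted p = 0.0528), 2 (-0.17, adjusted p = 0.0638) or 3 (-0.16, adjusted p = 0.0741) or siDNp63 replicate 3 (-0.15, adjusted p = 0.0596). TKT, transketolase of the non-oxidative branch of that pathway, had 6475, 6595 and 6472 in siCtrl and 5945, 8168 and 7987 in siDNp63. Here too siDNp63 replicate 1 was the lowest library and the other siDNp63 libraries the highest. The TKT log2 fold change was 0.18 (SE 0.109, edgeR adjusted p = 0.252) with all libraries and 0.31 (adjusted p = 2.73e-04) without that library. TALDO1, transaldolase, had a log2 fold change of -0.11 (edgeR adjusted p = 0.223). ME1, malic enzyme, had 146.5 ± 12.1 and 107.8 ± 14.2 (-0.44, SE 0.145, edgeR adjusted p = 0.05001, just above the threshold). ME1 passed by limma-voom (-0.43, adjusted p = 0.0484), with library size as the scaling (-0.53, adjusted p = 0.0249), with a stricter filter (-0.45, adjusted p = 0.0428) and without siDNp63 replicate 2 (adjusted p = 0.0305).

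CAT, catalase, fell from 2369 ± 77.6 to 2139 ± 89.3 normalized counts (by 0.15 on the log2 scale, SE 0.048, edgeR adjusted p = 0.0466), close to the threshold. The CAT call was lost by DESeq2 (-0.14, adjusted p = 0.0573), without the filter (adjusted p = 0.0506), on TPM (-0.21, adjusted p = 0.101), with length offsets (-0.15, adjusted p = 0.169), and without siCtrl replicate 2 (-0.13, adjusted p = 0.117) or 3 (-0.15, adjusted p = 0.0912) or siDNp63 replicate 2 (-0.12, adjusted p = 0.118) or 3 (-0.14, adjusted p = 0.129). SOD1, the cytosolic superoxide dismutase, had 5164 ± 108 and 5126 ± 321 (-0.01, edgeR adjusted p = 0.900).

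HMOX1, haem oxygenase, which frees iron from haem, had 183.9, 152.8 and 159.9 normalized counts in siCtrl and 199.6, 266.1 and 266.9 in siDNp63. The groups did not overlap, with siDNp63 replicate 1 near the highest siCtrl library. HMOX1 rose by a log2 fold change of 0.56 (SE 0.147, edgeR adjusted p = 0.0202). The call was lost without siCtrl replicate 2 (adjusted p = 0.0886), siCtrl replicate 3 (0.54, adjusted p = 0.0838), siDNp63 replicate 2 (0.50, adjusted p = 0.0646) or siDNp63 replicate 3 (0.50, adjusted p = 0.0742). FTL, the ferritin light chain, fell from 9384 ± 171 to 7902 ± 644 (by 0.25, SE 0.06, edgeR adjusted p = 0.0149). It was not called without siCtrl replicate 1 (-0.27, adjusted p = 0.0519), 2 (-0.24, adjusted p = 0.0753) or 3 (-0.24, adjusted p = 0.0757). FTH1, the ferritin heavy chain and the member of highest TPM in both groups (1411 ± 47.3 and 1297 ± 55.8 TPM), had a log2 fold change of -0.05 (edgeR adjusted p = 0.518). Of 9 further iron genes tested, 1 rose and 4 fell (55.6% called, against 33.6% of all genes tested). SLC40A1, ferroportin, the iron exporter, fell from 651 ± 75.7 to 217 ± 15.2 (by 1.58 on the log2 scale, SE 0.111, edgeR adjusted p = 3.43e-05), and CYBRD1, an iron reductase, fell by 0.68.

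TRIM16, a ubiquitin ligase of the NRF2 response, rose from 815 ± 28.1 to 967 ± 21.5 normalized counts (by a log2 fold change of 0.25, SE 0.057, edgeR adjusted p = 0.0117). TRIM16 was not called with library size as the scaling (0.16, adjusted p = 0.0520), on TPM (0.21, adjusted p = 0.184), with length offsets (0.28, adjusted p = 0.0799) or without siCtrl replicate 1 (0.22, adjusted p = 0.0593) or 2 (0.23, adjusted p = 0.0583), and 57.2% of its 31-base words are shared, mostly with TRIM16L. OSGIN1, an oxidative stress response gene, had 111.9, 100.8 and 105.8 in siCtrl and 71.6, 123.2 and 112.5 in siDNp63. Its siDNp63 libraries lay on both sides of siCtrl (log2 fold change -0.04, SE 0.206, edgeR adjusted p = 0.895).

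Where a member shares many words with other genes, its count depends on how reads were divided between them. Of 49 members, 12 shared at least 25% of their 31-base words with another gene, and 29 shared under 10%. Besides those already named, the members with at least 25% were FTH1 (63.6%), GPX1 (40.7%), NFE2L2 (39.5%), PRDX1 (35.4%), FTL (33.5%) and AKR1B10 (31.9%). The genes that shared most with them differed in level. HNRNPA3 for NFE2L2 had 28380 normalized counts in siCtrl, and AKR1B15 for AKR1B10 had 210.1, both above the member. MMACHC for PRDX1 had 1493, BEST1 for FTH1 36.3 and FTLP3 for FTL 1.07, all below the member. For GPX1 no row of that gene was found.

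The library siDNp63 replicate 1 differed from the mean of the other siDNp63 libraries by over 0.3 on the log2 scale in 8 members. It was lower for OSGIN1 (-0.71), GPX1 (-0.68), GSTP1 (-0.56), TKT (-0.44), HMOX1 (-0.42) and PRDX2 (-0.34). It was higher for MGST1 (0.49) and AKR1B10 (0.38). Among all genes tested 28.6% differed by as much. Without that library 18 members were higher and 10 lower. All 26 members called with the 6 libraries were called without it, and GSTP1 and TKT were added.

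**Figure D4:**
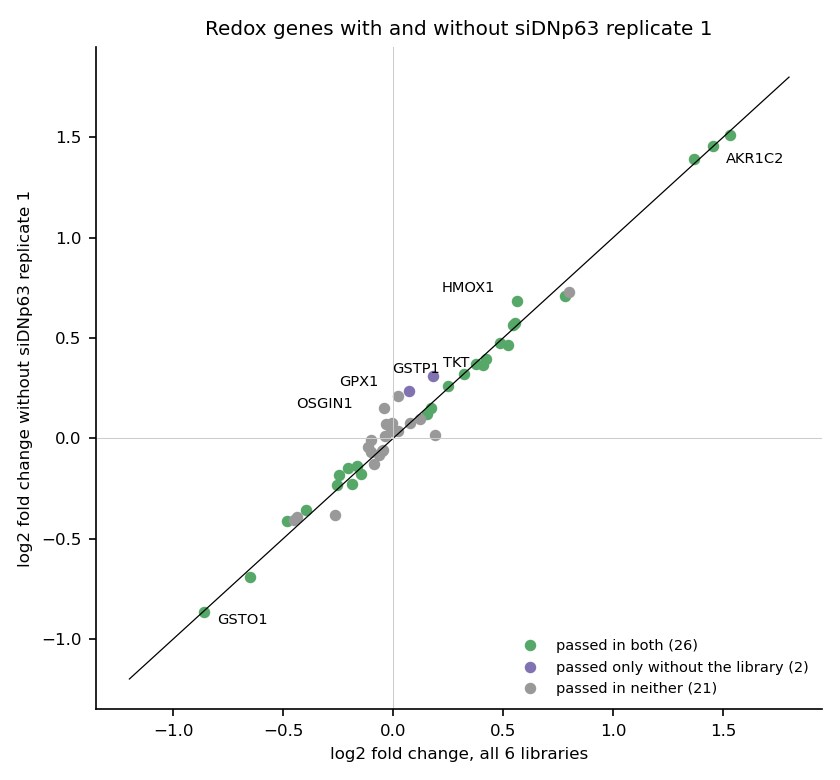
Log2 fold change of the 49 members with all 6 libraries (x axis) and without siDNp63 replicate 1 (y axis), with the line of equal value and colour for the calls by edgeR. The 26 called members lie near the line, GSTP1 and TKT pass only without the library, and GPX1 and OSGIN1 lie above the line without passing.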

How the data were processed

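RNA of 6 SCC90 libraries, 3 siCtrl and 3 siDNp63, grouped by the sample labels, was read from stranded poly(A)-selected libraries. Per the submitters' processing notes the tools were bcl2fastq 2.17.1.14 and kallisto 0.46.2 with genome build hg38, and no source used here names the annotation release. The deposited expected counts are the authors' estimated counts of reads per gene, with no scaling between libraries, and the deposited TPM values are the authors' abundances normalized for transcript length, which sum to 1000000 in every library. All 12 columns were used.

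Rounding gave whole counts, and gene symbols came from a name table that matched 35538 of 40488 identifiers. The 17257 genes that passed edgeR 4.0.16 filterByExpr (minimum count 10) were normalized by TMM and tested with glmQLFit and glmQLFTest, with group as the sole term. Benjamini-Hochberg adjustment ran over all genes tested, and only the listed genes are printed. The standard error (SE) is the log2 fold change divided by the square root of the F statistic. Values are mean ± SD of 3 libraries. Library totals of 35716277 to 52598831 counts leave genes with few counts imprecise. The scripts were tested on simulated data.

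The members and the further lists were chosen with earlier results of these data known. Every member is accounted for, those called with an absolute log2 fold change of at least 0.5 with all 6 values, and from each further list at most 4 called genes beyond that size are named. The alternatives were DESeq2 1.42.0, limma-voom (limma 3.58.1), library size alone, median-of-ratios scaling, no filter, at least 10 counts in every library, limma on log2(TPM + 0.5), transcript length offsets from counts over TPM, a replicate block, leaving out each library, and summing the AKR1C or GSTA copies. Shared sequence was counted as 31-base words over 252835 GENCODE transcripts, and promoter windows are those of RefSeq on GRCh38.p14.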

Additional observations from a re-analysis of the deposited data

How the results depend on the processing

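Of the 26 called members, 17 kept their call and direction in all 15 alternatives not confined to the AKR1C or GSTA copies, and the other 9 (GCLC, GSR, SRXN1, PRDX5, PGD, CAT, HMOX1, FTL and TRIM16) lost the call in at least 1 but never changed direction. GSTA3, which was not called, dropped out under the filter of 10 counts in every library. The 3 members past a log2 fold change of 1 stayed at 3 in every alternative. Higher members numbered 16, with 13 under library size alone, limma on TPM and length offsets, and 12 to 18 when 1 library was left out. Lower members numbered 10, with 14 under library size alone, 7 with length offsets, and 5 to 10 when 1 library was left out, the lowest being 5 without siCtrl replicate 3 and 6 without siDNp63 replicate 3. Under library size alone 2330 of 6447 calls over all genes were higher, against 3177 of 5803.

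The log2 fold change crossed 0 in 27 cases over 12 members, and in none of them did the value pass the test in either setting. These were TXN -0.066, GPX1 -0.064, PRDX3 -0.009 and GSTP1 -0.013 with library size alone, TXN -0.043, GPX1 -0.107 and PRDX3 -0.036 on TPM, KEAP1 7.2e-06 without the filter, and KEAP1 0.064, NQO1 0.003 and TALDO1 0.021 with length offsets. With 1 library left out the values ran from -0.065 to 0.076 for KEAP1, -0.036 to 0.06 for TXN, -0.088 to 0.208 for GPX1, -0.106 to 0.013 for GPX4, -0.108 to 0.073 for PRDX2, -0.029 to 0.234 for GSTP1, -0.053 to 0.037 for SOD1, -0.083 to 0.002 for FTH1 and -0.196 to 0.152 for OSGIN1, and of these GSTP1 passed at 0.234. The cause was not tested.

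With the replicate block 15 members were higher, 9 lower and 3 past a log2 fold change of 1, GPX1 stood at -0.004, and HMOX1 (0.55, edgeR adjusted p = 0.0558) and CAT (-0.15, edgeR adjusted p = 0.108) were not called. The deviations of same-numbered libraries from their group means had correlations of -0.0117, 0.0174 and 0.0267 across genes, and the libraries are not treated as paired. With 3 libraries per group, and siDNp63 replicate 1 apart from the others, these values cannot exclude that same-numbered libraries were handled together. Depth limits the genes with few counts, AKR1B10 and GSTA3 among the members.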
